A study of Capra hircus with 6 samples.

Results

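Solute carriers are the largest group of membrane transporters in mammals, named SLC with a family number and a member letter and number. They were taken here as every probe whose single annotated gene symbol starts with SLC and a digit, apart from 1 gene left out by the rule, and 1 probe was kept per gene, the one with the highest mean signal. The rule gave 109 genes from 111 probes, out of 6535 genes that have at least 1 probe with a single symbol. The genes were grouped by family number. Of them, 16 belong to amino acid families, 12 to sugar families, 7 to the nucleotide sugar family and 16 to the mitochondrial carrier family. Another 15 belong to inorganic ion families, 13 to metal families and 28 to other families. A class is named after the main substrates of its families, and single members may carry something else. The remaining 2, SLC2A4RG and SLC7A6OS, match the rule by their symbols but name proteins that are not carriers, and they were kept apart from the class medians.

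The samples were lactating mammary gland RNA of 6 goats, 3 with the Low CSN1S1 genotype and 3 with the High CSN1S1 genotype. CSN1S1 encodes alpha-S1-casein, a major goat milk protein. All 6 goats had been deprived of food for 48 h, so the comparison is between genotypes in fasted animals and there is no fed group. Their age, breed and litter are not stated in these sources. The goats were compared in 3 pairs (A, B and C) of 1 Low and 1 High goat, and every pair was hybridized together on 2 arrays with the dyes Cy3 and Cy5 exchanged. Each value below is a log2 ratio of Low over High, so a value below 0 means less signal in the Low goat. The CSN1S1 probe itself, which checks the labels, had a ratio of -2.71 ± 0.13 (SD, n = 3 pairs), 6.55-fold lower in the Low goats, with an adjusted p of 2.91e-09 by limma. Errors given with ± are SDs over the 3 pairs, adjusted p-values are limma's with Benjamini-Hochberg adjustment over all tested probes, and a gene's level is its normalized single-channel log2 intensity in a goat, given in the order of pairs A, B and C.

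Milk secretion depends on transporters at both faces of the mammary epithelial cell. Glucose for lactose synthesis enters mainly through facilitative carriers of the SLC2 family, amino acids for casein enter through sodium-coupled carriers and exchangers of the SLC1, SLC6, SLC7 and SLC38 families, and phosphate, iodide, zinc and other minerals pass into milk through ion and metal carriers. Inside the cell, SLC35 proteins bring nucleotide sugars and related donors into the Golgi and endoplasmic reticulum, where milk proteins and lipids are glycosylated, and SLC25 proteins move metabolites across the inner mitochondrial membrane.

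A channel reading was counted as above background when the signal exceeded the local background by 2 background SDs, and each probe has 12 readings, 6 per genotype. By that measure 63 of the 109 genes, or 57.8%, were above background in all 12 readings, beside 61.5% of all 8379 probes. Another 28 genes were above it in 6 to 11 readings and 9 in 1 to 5. The other 9, or 8.26% beside 8.16% of all probes, were in none: SLC37A3, SLC5A7, SLC25A4, SLC25A44, SLC39A12, SLC17A5, SLC22A8, SLC33A1 and SLC51A. Some of these genes have their known roles in other organs, such as SLC22A8, an organic anion transporter of the kidney, and SLC51A, a subunit of a bile acid transporter. Detection was higher in Cy5 than in Cy3, with 82.3% to 87.4% of probes above background per Cy5 reading and 66.3% to 77.3% per Cy3 reading, and 7 of the genes were seen only in Cy5. Among the genes under 6 readings were SLC1A3, SLC12A2, SLC20A2 and SLC11A1, each above background in only 1 or 2 of the 12 readings. That leaves these genes, SLC12A2 (the sodium-potassium-chloride cotransporter NKCC1) among them, without a measured fold. A probe not above background gives only an upper bound on its gene, and probes differ in how well they bind their target, so no gene's level is set against another's.

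**Figure D1:**
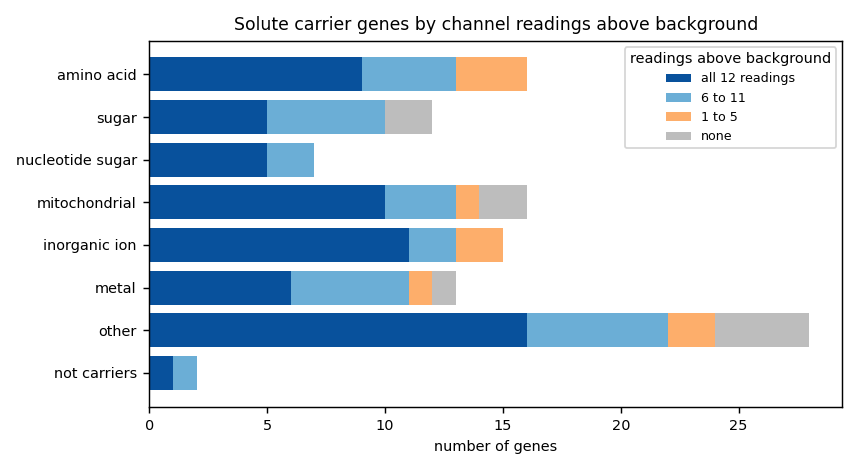
Number of solute carrier genes (horizontal axis) in each substrate class (vertical axis), split by how many of the 12 channel readings exceeded the background by 2 background SDs. All 7 genes of the nucleotide sugar class were above background in at least 6 readings. The other families held 4 of the 9 genes that were above background in none.

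Of the 109 genes, 91 passed the filter of at least 6 readings above background and were tested together with all other such probes, 6733 in all. No solute carrier passed the test between the genotypes: limma called 0 of the 91 at an adjusted p under 0.05, while it called 30 probes, 0.446%, over the whole array. The smallest adjusted p among the solute carriers was 0.311. At an unadjusted p under 0.05 there were 9 genes, or 9.89%, beside 11.3% of all tested probes. Of these 9, SLC39A14, SLC25A12, SLC35B2, SLC7A4 and SLC35F2 were lower in the Low goats, 5.49% of the 91 beside 5.47% of all probes. SLC12A8, SLC25A26, SLC25A20 and SLC40A1 were higher, 4.40% beside 5.79%. These shares are near those of the whole array or below them. A test on each gene's own spread and a fit that treated the goats as unpaired called 0 probes on the whole array and so not CSN1S1 either, which leaves their 0 solute carriers uninformative. Leaving out 1 pair or 1 array moved the count over the whole array to between 3 and 67, the highest without pair A, and that of the solute carriers stayed at 0. In bulk tissue a lower signal can come from fewer cells of a type or from less RNA per cell, which cannot be told apart here.

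The 91 ratios were small as well as uncalled. They ran from -0.15 for SLC39A14 to 0.16 for SLC40A1, at most a 1.12-fold difference, with a median of -0.00033 beside 0.0031 for all tested probes. Counted by sign, 43 lay above 0 and 48 below, and the 89 that are carriers had a median of -0.0043. Every class median except that of the nucleotide sugar carriers changed sign in at least 1 alternative run. For the mitochondrial and metal classes this happened only in runs that left out arrays, not under another processing of all arrays. The 95% confidence intervals of single genes reached at the lowest -0.25, for SLC39A14, and at the highest 0.31, for SLC40A1. The most that any of these intervals allows is a 1.24-fold difference in processed signal. That bound is for each gene alone and is not adjusted for the number of genes. It also depends on the offset added in the background correction. With a smaller offset of 10 the ratio of SLC40A1 was 0.21 and that of SLC39A14 -0.19. The folds given here are therefore not limits on the difference in RNA. The ratio had the same sign in all 3 pairs for 16 genes that were lower in the Low goats, 17.6% beside 16.9% of all probes, and for 16 that were higher, 17.6% beside 18.6%. On all 6 arrays it was below 0 for SLC25A12 alone, 1.10% beside 1.86% of all probes, and above 0 for no gene, beside 1.13%.

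**Figure D2:**
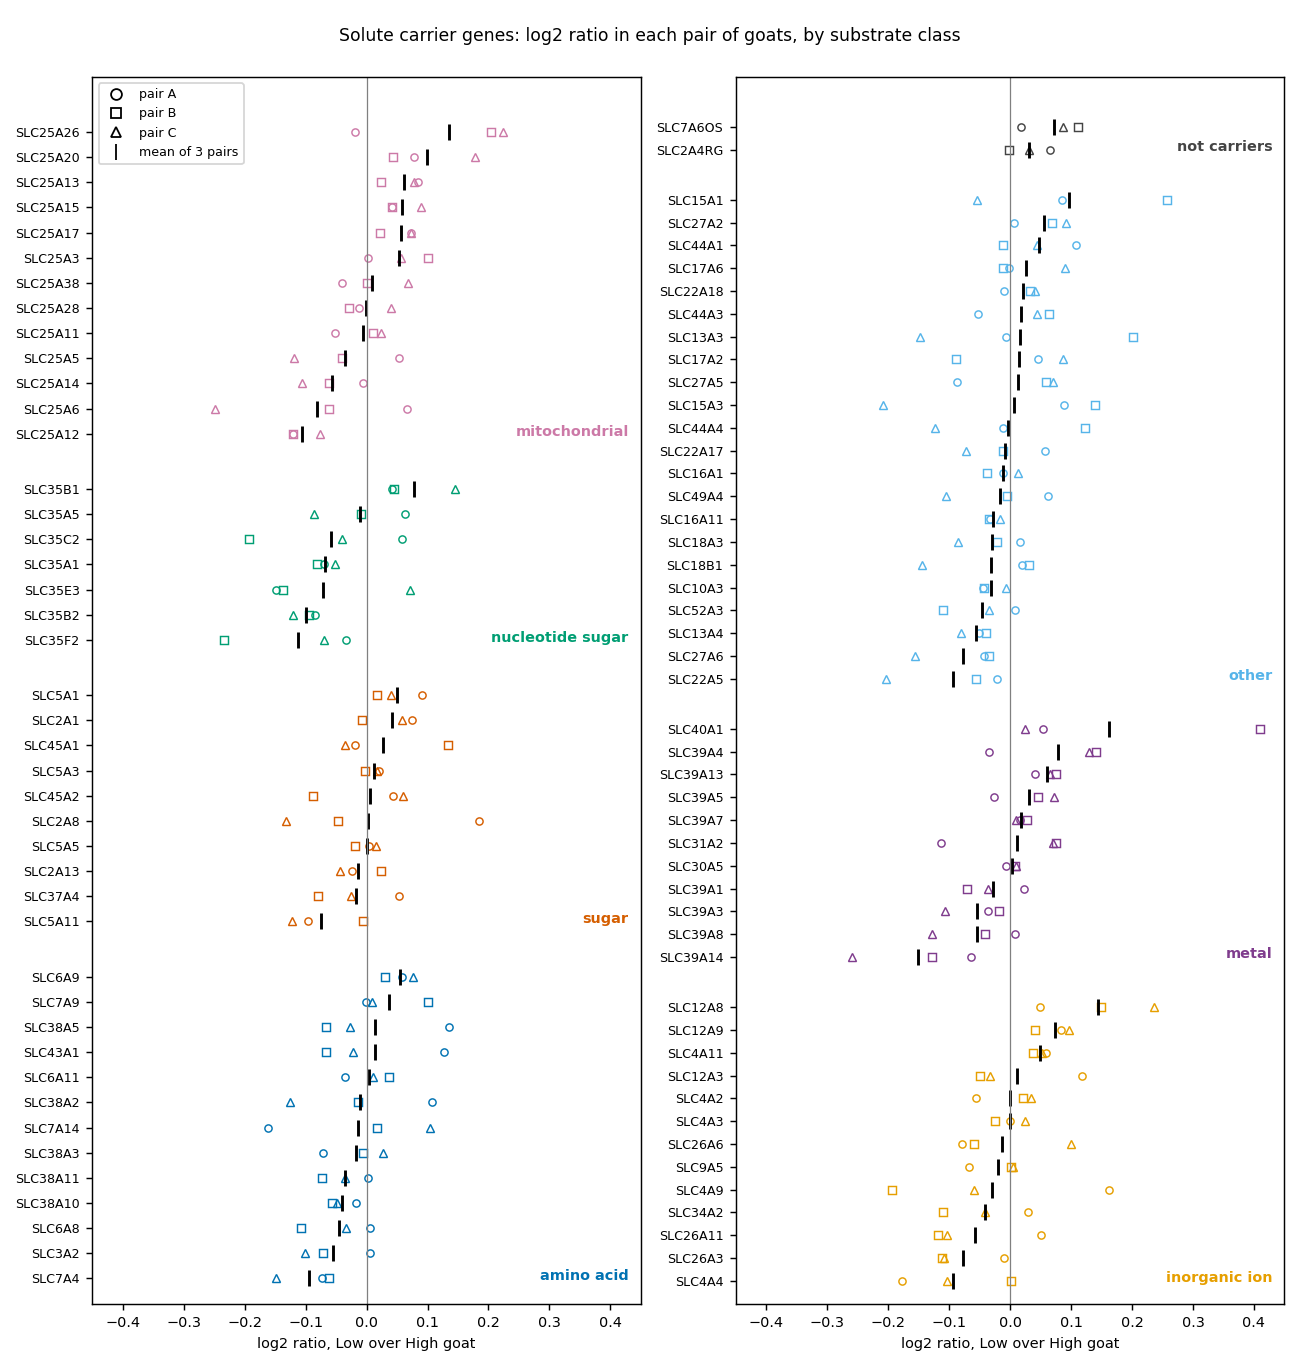
Log2 ratio of Low over High (horizontal axes) in pairs A, B and C (open symbols) and their mean (black bar) for each of the 91 tested genes (vertical axes), ordered by mean within each class. Means lie between -0.15 for SLC39A14 and 0.16 for SLC40A1, and the farthest single pair is pair B of SLC40A1 at 0.41.

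Among the amino acid carriers 13 of 16 genes were tested, 5 lay above 0 and 8 below, and none passed the test. Their median ratio was -0.014, and the medians of pairs A to C were 0.0016, -0.057 and -0.028. The class member with the smallest p was SLC7A4, which resembles the cationic amino acid transporters in sequence. Its normalized log2 level was 15.13, 14.70 and 14.59 in the Low goats, in the order of the pairs, and 15.21, 14.77 and 14.74 in the High goats. Each Low goat lay under its partner, both goats of pair A stood above the other 4, and the genotypes overlapped. The ratio was -0.09 ± 0.05 (SD, n = 3 pairs), with a 95% interval of -0.18 to -0.0095 and an adjusted p of 0.406. No spot of it was saturated, and computed from signal medians in place of means the ratio was 0.031.

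SLC3A2 is the heavy chain that brings several SLC7 light chains, including the leucine carrier SLC7A5, to the cell surface. It stood at log2 levels of 8.63, 8.63 and 8.59 in the Low goats and 8.62, 8.70 and 8.69 in the High goats. The pair ratios were 0.0052, -0.07 and -0.10, with a mean of -0.06 ± 0.05 and an adjusted p of 0.593, so pair A lay at about 0 and pairs B and C below it. SLC38A2, a sodium-coupled carrier of small neutral amino acids, was above background in 7 of 12 readings and had pair ratios of 0.11, -0.01 and -0.13, which fall on both sides of 0. Its second probe was above background in no reading. SLC6A9, a glycine transporter, lay above 0 in every pair (0.06, 0.03 and 0.08; mean 0.05 ± 0.02, adjusted p 0.584), and SLC6A8, the creatine transporter, averaged -0.05 ± 0.06 (adjusted p 0.67). The widest disagreement between pairs in this class was in SLC7A14, a lysosomal relative of SLC7A4, at -0.16, 0.02 and 0.10. The levels of SLC7A14 spanned 10.62, 9.90 and 11.36 in the Low goats and 10.78, 9.89 and 11.25 in the High goats, so the pairs stood farther apart than the 2 genotypes in any of them. The other tested members, SLC38A10, SLC38A11, SLC38A3, SLC38A5, SLC43A1, SLC6A11 and SLC7A9, averaged between -0.04 and 0.04.

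The sugar class held 10 tested genes of 12, with 7 above 0, 3 below, none past the test and a median of 0.0035. SLC2A1 encodes GLUT1, the main facilitative glucose carrier of the lactating gland. Its log2 level was 7.26, 7.38 and 7.52 in the Low goats and 7.18, 7.39 and 7.46 in the High goats, with ratios of 0.08, -0.0075 and 0.06 that averaged 0.04 ± 0.04 (95% interval -0.04 to 0.13, adjusted p 0.68). The genotypes overlapped and the interval spans 0. SLC2A8, a facilitative carrier found mainly on intracellular membranes, had the class's largest spread, with pair ratios of 0.18, -0.05 and -0.13 and a mean of 0.0016 ± 0.16. Pair A stood opposite to pairs B and C. The sodium-coupled glucose carrier SLC5A1 was measured at 7.55, 7.26 and 7.32 in the Low goats and 7.46, 7.24 and 7.28 in the High goats, and its ratio of 0.05 ± 0.04 was above 0 in all pairs with an adjusted p of 0.627.

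SLC5A11, a sodium-coupled inositol carrier, had the smallest p of the class. Its Low goats stood at 7.98, 7.79 and 8.34 and its High goats at 8.08, 7.79 and 8.47, the Low goat lower in pairs A and C and nearly equal in pair B, for a ratio of -0.08 ± 0.06 and an adjusted p of 0.493. Its mean ratio was -0.25 with the Low goat in Cy5 and 0.09 with it in Cy3. SLC5A5 belongs to this class by family number only, since it carries iodide, which it brings into milk. It was the closest to equality of all 91 genes: its levels were 8.51, 8.11 and 9.12 in the Low goats and 8.50, 8.13 and 9.10 in the High goats, and its ratio of 9e-05 ± 0.02 had a 95% interval of -0.08 to 0.08. SLC2A13 and SLC5A3, both inositol carriers, averaged -0.01 and 0.01, and SLC37A4, the glucose-6-phosphate carrier of the endoplasmic reticulum, -0.02. SLC45A1 averaged 0.03 and SLC45A2, a carrier of pigment cells, 0.0053.

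All 7 SLC35 genes, the nucleotide sugar class, were tested, and 6 of them lay below 0, beside 3247 of all 6733 tested probes. The class is set by family number, and not every member is an established nucleotide sugar carrier. The class median was -0.068, the lowest of the classes, with pair medians of -0.033, -0.094 and -0.052, but none of the 7 passed the test. The median stayed below 0 under every alternative run, between -0.13 from the arrays that held the Low goat in Cy3 and -0.0087 from those that held it in Cy5. These runs reuse the same arrays and are not independent of each other, and the class holds only 7 genes. SLC35B2 brings PAPS, the donor of sulfate groups, into the Golgi. It stood at 11.03, 11.14 and 10.77 in the Low goats and 11.12, 11.23 and 10.89 in the High goats, the Low goat lower in each pair by a similar amount, while the genotypes overlapped. Its ratio was -0.10 ± 0.02 (95% interval -0.18 to -0.02), with an adjusted p of 0.368. Its single arrays read 0.05 and -0.22 in pair A, -0.08 and -0.10 in pair B, and -0.19 and -0.05 in pair C. The pair means thus lay closer together than the arrays within pairs A and C. SLC35A1, the CMP-sialic acid carrier, likewise had closely agreeing pair ratios of -0.07, -0.08 and -0.05 and levels of 11.46, 12.24 and 12.52 in the Low and 11.53, 12.32 and 12.57 in the High goats. The mean of -0.07 ± 0.01 had an adjusted p of 0.499. With the Low goat in Cy5 the mean ratio of SLC35A1 was 0.07 and with it in Cy3 -0.21, so its sign depended on the dye.

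SLC35F2 was above background in only 6 of 12 readings and is an SLC35 member not established as a nucleotide sugar carrier. Its pair ratios were -0.03, -0.23 and -0.07, the widest of them in pair B, and its mean -0.11 ± 0.11 with an adjusted p of 0.408. SLC35B1, a carrier of the endoplasmic reticulum, was the member above 0. Its levels were 9.48, 9.32 and 9.27 in the Low goats and 9.43, 9.27 and 9.12 in the High goats, and its ratio of 0.08 ± 0.06 had an adjusted p of 0.477. SLC35C2, a Golgi protein linked to fucose transfer, varied most between pairs (0.06, -0.19 and -0.04; mean -0.06 ± 0.13) and was above background in Cy5 alone. SLC35E3 averaged -0.07, with pair C opposite to A and B, and SLC35A5 -0.01.

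Of the 16 members of the mitochondrial carrier family, 13 were tested, 7 lay above 0 and 6 below, and none passed the test. The median was 0.0090. SLC25A12 exchanges aspartate for glutamate as part of the malate-aspartate shuttle. Its levels were 7.57, 7.90 and 8.03 in the Low goats and 7.69, 8.02 and 8.10 in the High goats. Each Low goat was lower than its partner, although the Low goats of pairs B and C exceeded the High goat of pair A. The ratio was -0.11 ± 0.03 (95% interval -0.19 to -0.02, adjusted p 0.349). On the single arrays the ratios were -0.04 and -0.20 in pair A, -0.16 and -0.08 in pair B, and -0.07 and -0.08 in pair C, the same direction in both dye orientations. SLC25A13, the paralog with the same exchange activity, did not share that sign, at 0.06 ± 0.03 with an adjusted p of 0.539, and was above background in 1 Cy3 reading only.

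SLC25A20 exchanges acylcarnitine for carnitine and so brings fatty acids to mitochondrial oxidation. It was measured at 8.01, 7.87 and 7.98 in the Low goats and 7.94, 7.83 and 7.80 in the High goats. The Low goat was higher in each pair, by a mean of 0.10 ± 0.07 with an adjusted p of 0.408, and the mean was 0.09 with the Low goat in Cy5 and 0.11 with it in Cy3. SLC25A26, the mitochondrial carrier of S-adenosylmethionine, stood at 8.30, 8.83 and 8.71 in the Low goats and 8.32, 8.62 and 8.49 in the High goats. Pairs B and C gave ratios near 0.2 and pair A one near 0, so that the mean of 0.14 ± 0.14 had an adjusted p of 0.386. Without pair A its ratio was 0.21 and its adjusted p 0.0737, the lowest that any solute carrier reached when 1 pair or array was left out.

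The phosphate carrier SLC25A3 had pair ratios of 0.0024, 0.10 and 0.06 and a mean of 0.05 ± 0.05 (adjusted p 0.607). Of the adenine nucleotide translocators, which exchange ADP and ATP, SLC25A6 had the widest spread of the class at 0.07, -0.06 and -0.25 (mean -0.08 ± 0.16), and SLC25A5 averaged -0.04 ± 0.09. Both had pair A above 0 and pairs B and C below. SLC25A4, SLC25A5 and SLC25A6 are related in sequence, and their probes were above background in 0, 8 and 12 of 12 readings. The probe sequences were not examined. Whether these probes share target RNA was not tested, so their values are uncertain as to gene. SLC25A1, which exports citrate for fatty acid synthesis, was above background in 3 of 12 readings and was not tested. SLC25A17, a peroxisomal member of the family, had one of the larger dye effects: its ratio was -0.20 with the Low goat in Cy5 and 0.31 with it in Cy3, for a mean of 0.06 ± 0.03. The ornithine carrier SLC25A15 averaged 0.06, and SLC25A14, SLC25A38, SLC25A11 and SLC25A28 lay between -0.06 and 0.009.

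The inorganic ion carriers gave 13 tested genes of 15, 4 above 0 and 9 below, none past the test, with a median of -0.013. SLC12A8, a member of the cation-chloride cotransporter family, had the second smallest p of all 91 genes. The Low goats stood at 8.23, 7.97 and 8.04 and the High goats at 8.18, 7.82 and 7.81. The Low goat was the higher in each pair, though the genotypes overlapped, and the ratio was 0.14 ± 0.09 (95% interval 0.05 to 0.24, adjusted p 0.312). With the Low goat in Cy5 the mean ratio was -0.02 and with it in Cy3 0.31. Of the bicarbonate carriers, SLC4A4, a sodium-bicarbonate cotransporter, had levels of 8.74, 8.97 and 9.56 in the Low and 8.92, 8.97 and 9.67 in the High goats, with a ratio of -0.09 ± 0.09 and an adjusted p of 0.448. SLC4A2, an anion exchanger of the basolateral membrane, averaged -0.00029 ± 0.05, the result of 0.22 and -0.22 in the 2 dye orientations. SLC4A9 varied most between pairs, at 0.16, -0.19 and -0.06, and SLC4A3 and SLC4A11 averaged -0.00033 and 0.05.

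SLC34A2 encodes the sodium-phosphate cotransporter NaPi-IIb, a phosphate carrier of the apical membrane in secretory epithelia. It stood at 9.227, 9.696 and 8.962 in the Low goats and 9.198, 9.807 and 9.003 in the High goats, and the genotypes overlapped. The mean ratio was -0.04 ± 0.07, with an interval of -0.13 to 0.05 and an adjusted p of 0.708. SLC12A9, a relative of the cation-chloride cotransporters, lay above 0 in each pair (0.08, 0.04 and 0.10; adjusted p 0.475). SLC26A3, a chloride-bicarbonate exchanger, lay below 0 in each pair (-0.0094, -0.11 and -0.11; adjusted p 0.477). The sign of both depended on the dye. With the Low goat in Cy5 the mean ratio was 0.19 for SLC12A9 and -0.29 for SLC26A3, and with it in Cy3 -0.04 and 0.14. SLC26A11, a sulfate carrier, averaged -0.06 ± 0.09 out of -0.36 with the Low goat in Cy5 and 0.25 with it in Cy3. SLC9A5, a sodium-proton exchanger, averaged -0.02, SLC26A6 -0.01 and SLC12A3 0.01.

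Metal carriers included both ends of the range. Of 13 genes, 11 were tested, 7 above 0 and 4 below, with a median of 0.011 and none past the test. SLC39A14 encodes ZIP14, an importer of zinc, manganese and iron. Its Low goats stood at 7.16, 7.41 and 7.26 and its High goats at 7.22, 7.54 and 7.52. Each Low goat was below its partner, with pair ratios of -0.06, -0.13 and -0.26, and the genotypes overlapped. The mean of -0.15 ± 0.10 had a 95% interval of -0.25 to -0.05 and the smallest p of the 91 genes, 0.00739 unadjusted and 0.311 adjusted. On single arrays the ratios were -0.43 to -0.21 with the Low goat in Cy5 and -0.09 to 0.08 with it in Cy3, 2 ranges that did not overlap. SLC39A14 was above background in 9 of 12 readings, 3 of them in Cy3.

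SLC40A1 encodes ferroportin, the iron exporter of the cell. Its levels were 7.46, 7.81 and 7.84 in the Low goats and 7.41, 7.40 and 7.81 in the High goats. Pair B alone differed widely: the pair ratios were 0.05, 0.41 and 0.02, the largest spread of the 91 genes, and the mean of 0.16 ± 0.22 had an adjusted p of 0.415. Within pair B the 2 arrays read 0.00071 and 0.82. SLC39A4, an importer of dietary zinc in the gut, stood at 10.85, 10.42 and 10.51 in the Low goats and 10.88, 10.27 and 10.39 in the High goats, with a mean of 0.08 ± 0.10 and an adjusted p of 0.519. SLC39A8, an importer of manganese and zinc, averaged -0.05 ± 0.07 (adjusted p 0.62). SLC30A5, a zinc carrier of the secretory pathway, was nearly equal in every pair: 12.19, 12.54 and 12.62 in the Low goats against 12.20, 12.53 and 12.61 in the High goats, a ratio of 0.0034 ± 0.0093. SLC39A13 and SLC39A7, which release zinc from intracellular stores, averaged 0.06 and 0.02. SLC39A3, SLC39A1, SLC39A5 and the copper carrier SLC31A2 lay between -0.05 and 0.03.

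**Figure D3:**
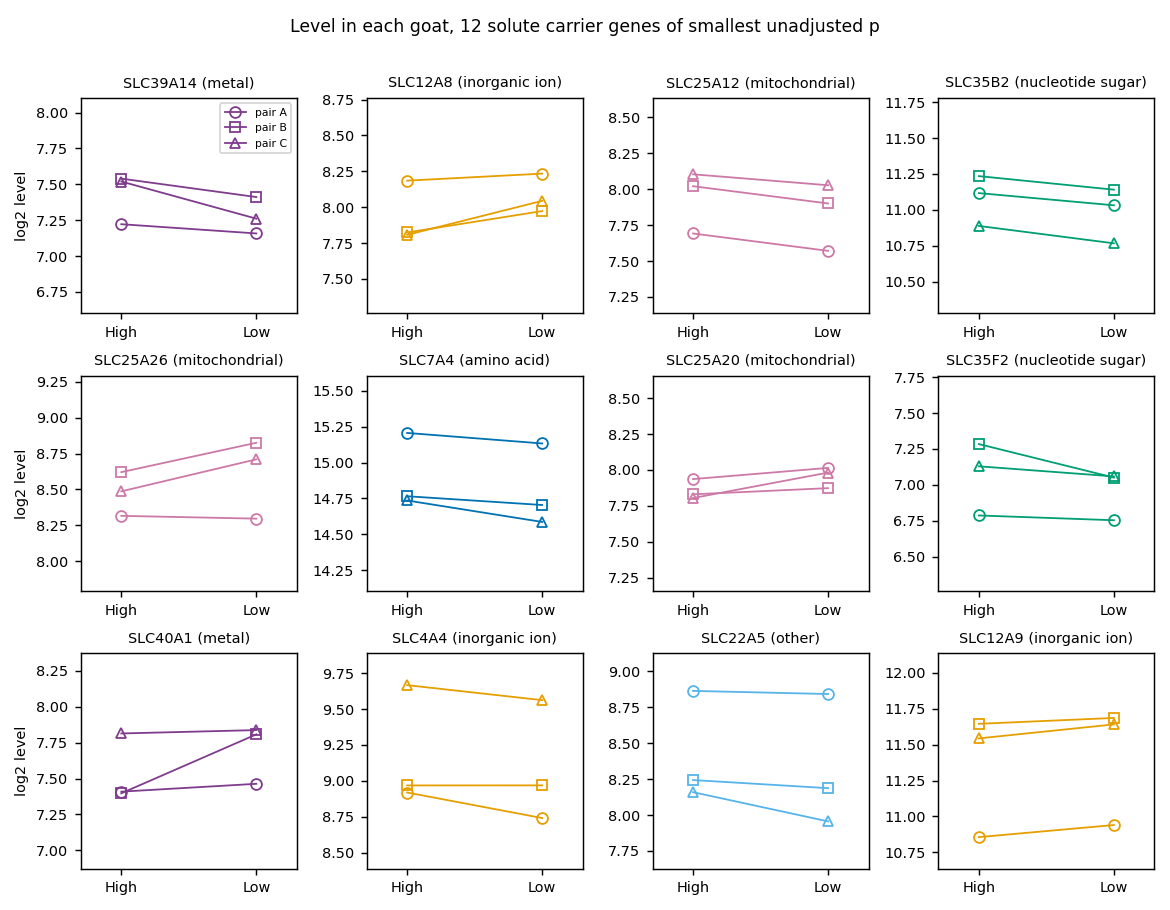
Normalized log2 level (vertical axes, each spanning the same width but centred on its gene) of the 12 solute carriers of smallest unadjusted p in the High and Low goat of each pair, joined by a line per pair. In SLC25A12 and SLC35B2 the 3 lines run nearly parallel, and in SLC40A1 only the line of pair B is steep.

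The 28 genes of other families carry monocarboxylates, peptides, vitamins, fatty acids, organic cations and further substrates. Of the 22 tested, 10 lay above 0 and 12 below, with a median of -0.0067 and none past the test. SLC22A5 encodes the carnitine carrier OCTN2. It stood at 8.84, 8.19 and 7.96 in the Low goats and 8.86, 8.24 and 8.16 in the High goats. The ratio lay below 0 in each pair, at -0.02, -0.06 and -0.20, and its mean of -0.09 ± 0.10 had an adjusted p of 0.453. With the Low goat in Cy5 the mean was -0.21 and with it in Cy3 0.02. SLC16A1, a carrier of lactate and ketone bodies, was close to equality, with 9.11, 9.47 and 9.79 in the Low goats, 9.12, 9.50 and 9.78 in the High goats and a ratio of -0.01 ± 0.02. Its interval of -0.09 to 0.07 was among those that span 0. The related lactate carrier SLC16A3 was above background in 4 of 12 readings and was not tested.

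Of the fatty acid transport proteins, SLC27A6 is known from the lactating bovine gland. Its levels were 6.965, 6.968 and 6.967 in the Low goats and 7.007, 7.003 and 7.124 in the High goats. This was the only one of the 91 genes whose Low and High goats did not overlap, 1.10% beside 1.14% of all tested probes. The ratio was -0.08 ± 0.07 and the adjusted p 0.489, on a probe above background in 6 of 12 readings. SLC27A2 and SLC27A5 averaged 0.05 and 0.01, and SLC27A4 was not tested. SLC15A1, an oligopeptide carrier, had pair ratios of 0.09, 0.26 and -0.05 and a mean of 0.10 ± 0.16 (adjusted p 0.521). SLC15A3, its lysosomal relative, varied most between pairs in this group, at 0.09, 0.14 and -0.21. The sulfate carrier SLC13A4 lay below 0 in each pair, with a mean of -0.06 ± 0.02 and an adjusted p of 0.567. The choline carrier SLC44A1 averaged 0.05 and the riboflavin carrier SLC52A3 -0.05. The remaining tested members lay between -0.03 and 0.03. SLC33A1, the acetyl-CoA carrier of the endoplasmic reticulum, was in no reading above background. The 2 genes that are not carriers, SLC7A6OS and SLC2A4RG averaged 0.07 ± 0.05 and 0.03 ± 0.03 with adjusted p-values of 0.499 and 0.751.

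The size of these ratios was set beside the dye effect, taken per gene as the mean log2 ratio of Cy5 over Cy3. It cancels between the 2 arrays of a pair where it is equal on both. Where it is unequal, a part of it stays in the pair mean. The median size of the Low over High ratio over the 91 genes was 0.036 and that of the dye effect 0.092. The dye effect exceeded the ratio in 64 of the 91 genes, 70.3% beside 74.4% of all tested probes. The ranges of the 3 arrays in each dye orientation did not overlap in 43 genes, 47.3% beside 53.3%. SLC17A2 had the largest dye effect. Its single-array ratios were 0.23 to 0.45 with the Low goat in Cy5 and -0.40 to -0.28 with it in Cy3, while its mean over both was 0.01 ± 0.09. The metal carrier SLC39A4 showed the opposite dye preference, at -0.36 to -0.13 and 0.29 to 0.55.

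Read from 1 dye orientation alone, many solute carriers would pass the same threshold. With the Low goat in Cy5 limma called 13 of the 91, 14.3% beside 17.1% of all tested probes, and with the Low goat in Cy3 28, 30.8% beside 36.4%. In both orientations 8 genes were called with opposite signs, 8.79% beside 12.5% of all tested probes: SLC37A4, SLC45A2, SLC26A11, SLC4A2, SLC39A4, SLC39A8, SLC17A2 and SLC2A4RG. Not 1 solute carrier was called in both with the same sign, beside 0.49% of all tested probes.

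**Figure D4:**
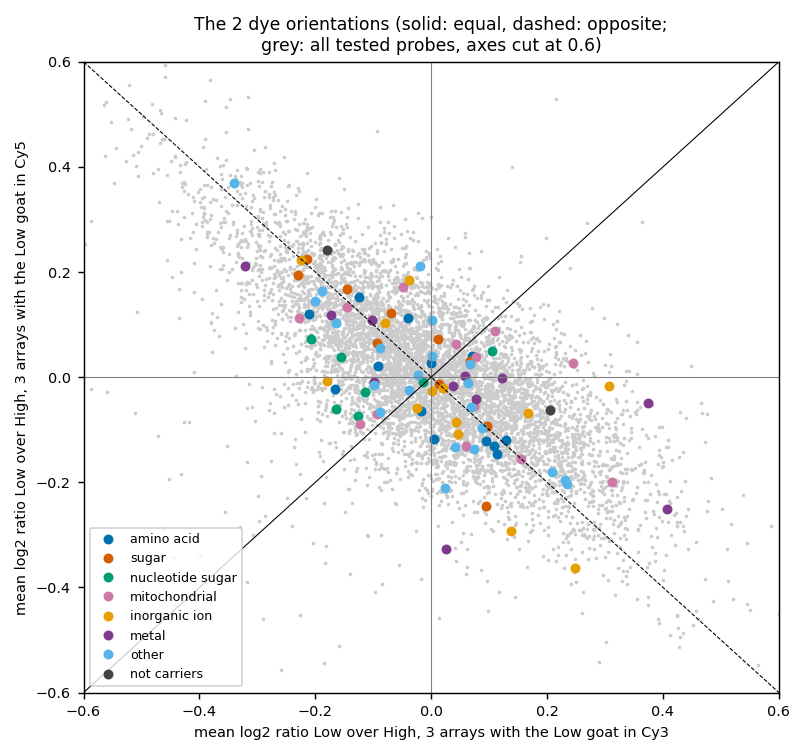
Mean log2 ratio of Low over High over the 3 arrays that held the Low goat in Cy3 (horizontal axis) and in Cy5 (vertical axis) for the 91 solute carriers by class (colours) and all tested probes (grey, axes ending at 0.6). In 64 of the 91 solute carriers the 2 means have opposite signs, and SLC17A2 lies farthest to the upper left at -0.34 and 0.37.

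Over the whole array, solute carriers included, levels varied more among the goats of 1 genotype than the ratios varied among pairs. For the solute carriers the median SD of the level over the 3 Low goats was 0.19 and over the 3 High goats 0.19, while the median SD of the pair ratio was 0.057. In 75 of the 91 genes the SD of the pair ratio was smaller than both level SDs, 82.4% beside 86.6% of all tested probes. SLC31A2 and SLC39A1 show this: for SLC39A1, a zinc importer of the cell surface, the levels were 10.55, 10.45 and 11.91 in the Low goats and 10.53, 10.52 and 11.95 in the High goats, so pair C stood apart from A and B in both genotypes. For SLC31A2 pair A stood below B and C, with 8.05, 8.86 and 9.02 in the Low and 8.16, 8.78 and 8.95 in the High goats. The partners were read on the same slides, so differences between pairs in level hold array differences as well as differences between animals, which cannot be told apart.

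**Figure D5:**
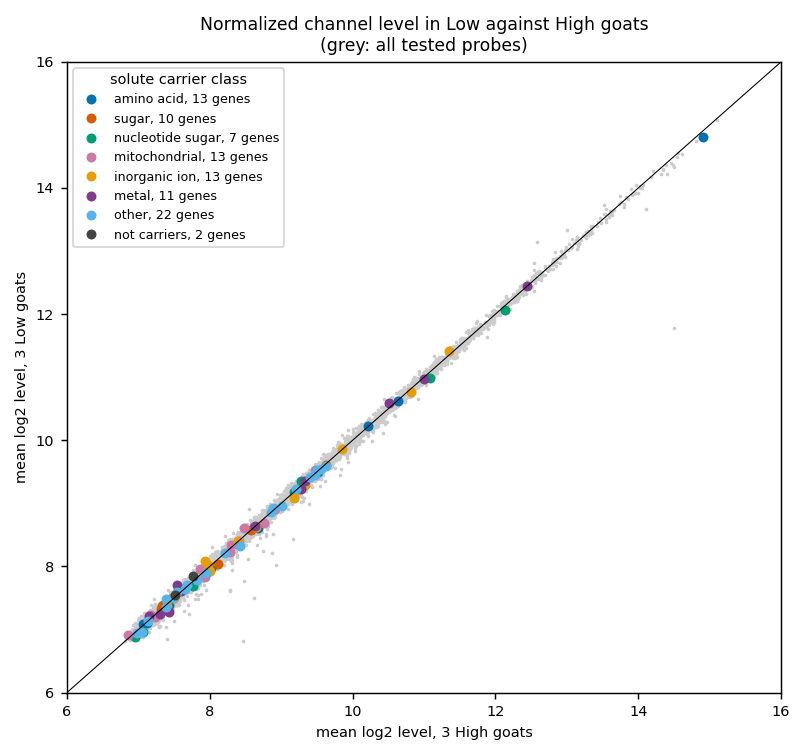
Mean normalized log2 level in the 3 Low goats (vertical axis) against the 3 High goats (horizontal axis) for the 91 solute carriers by class (colours) and all tested probes (grey), with the line of equality. The solute carriers lie along the line at all signal levels, for example SLC7A4 at 14.81 in Low and 14.90 in High goats.

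Other membrane transport genes were counted for comparison. Of 47 ion pump subunits, ABC transporters, aquaporins, SLCO carriers and VDAC channels, 41 were tested, 20 lay above 0 and 21 below, and the median was -0.0010. limma called 0 of them at an adjusted p under 0.05, beside 0.446% of all tested probes. At an unadjusted p under 0.05 there were 3, or 7.32%, beside 11.3%, and the test on each gene's own spread called 0 probes on the whole array. ABCB1, an exporter of drugs and lipids, had pair ratios of -0.40, 0.05 and -0.37 and a mean of -0.24 ± 0.25 (adjusted p 0.321), with 9.57, 8.65 and 9.03 in the Low goats and 9.96, 8.60 and 9.40 in the High goats. ABCB8, a mitochondrial transporter, averaged -0.14 ± 0.13 and ABCA9 0.14 ± 0.08, with adjusted p-values of 0.374 and 0.313. Cell type markers were read as well: all 7 markers of lactating mammary epithelium were above background in all 12 readings. So were 3 of 4 adipocyte, 3 of 4 leukocyte, 1 of 2 red blood cell and 2 of 2 skeletal muscle markers measured. Of all probes 61.5% were too, so these counts cannot tell the tissue from another and do not check its label. No marker passed the test, but the marker ratios were not all small. Epithelial markers ran from -0.44 for PAEP to 0.55 for LALBA, a wider range than that of the solute carriers. By limma their unadjusted p-values were 0.0047 and 0.0016, and the adjusted ones 0.271 and 0.170. Leukocyte markers ran from -0.16 for ITGB2 to 0.12 for CD68, and adipocyte markers from -0.27 for LEP to 0.04 for CFD. The part of these cell types in the ratios of the solute carriers was not tested.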

How the data were processed

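Lactating mammary gland RNA of 6 goats was measured on 6 arrays, 3 pairs of goats with 2 dye-swapped arrays each; the pairing is given by the labels, since goats of a pair share their arrays. Per the labels' protocols, direct labelling used 5 µg of total RNA. The deposited scanner files hold the signal and background intensity of 19200 spots per dye channel on a linear scale, read with ImaGene 6.0 per the labels (6.0.1 per the file headers), with the background not subtracted. The authors' log2 ratios of Low over High, deposited per spot in a series table, served as an alternative. Its scale and direction come from setting each column against that array's scanner values (correlation at least 0.896 in each of 20 intensity bins). Its column medians were -0.014 to 0.0034, and how it was normalized is not stated.

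The background was corrected by normexp (offset 50) in limma 3.58.1 under R 4.3.3, with 1 loess curve per array for normalization. Spots flagged manual or poor, 26 to 67 on an array, were dropped, duplicate spots averaged, and the 2 arrays of a pair averaged. The 3 pair means were tested against 0 by limma's moderated test, with Benjamini-Hochberg adjustment over 6733 probes that were above background in at least 6 of 12 readings and had a value on all arrays. The pooled spread has 7.47 degrees of freedom against 2 from a gene's own pairs. Levels per goat are single-channel log2 intensities after loess and Aquantile, averaged over a pair's 2 arrays. The procedure was tested on simulated data with a dye effect equal on both arrays of a pair and changes larger than any solute carrier ratio. That test therefore does not bear on unequal dye effects or on ratios as small as those found here. Median signal over background was 2.67 to 6.00 per channel, and the number of arrays limits the precision.

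Symbols come from the platform annotation (6840 of 8379 probes with 1 symbol, 93 with several, 1446 with none); 106 of the 109 symbols are in the goat gene table of ARS1.2, all but SLC25A6, SLC49A4 and SLC7A9. The species of the probe sequences and their fit to goat transcripts were not examined. The members and lists were chosen with earlier results of these data known. Genes were named by rule: in each class up to 4 of smallest p, the largest spread between pairs, the largest dye effect, and genes with a known role in milk secretion; the others are given by their means.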

Additional observations from a re-analysis of the deposited data

How the results depend on the processing

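limma called 0 solute carriers with 9 at an unadjusted p under 0.05, and 0 under every alternative except the single dye orientations, with 13 for the Low goat in Cy5 and 28 for the Low goat in Cy3. Without the replicate block, with goats unpaired, 0 solute carriers and 0 of all probes were called, with 11 of all probes at an unadjusted p under 0.05. The test on each probe's own spread also called 0 of all probes, with 503 at an unadjusted p under 0.05. The count over all probes was 19 with a normexp offset of 10, 19 with signal and background medians, 18 with the authors' series values, 1153 with the Low goat in Cy5 and 2453 with it in Cy3, and it ranged from 3 to 67 when 1 pair or 1 array was left out. Of the 67 probes called without pair A, 27 were among the 30.

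The median of the 89 carriers was 0.0092 with median centring of each array, and -0.019 to 0.0044 when 1 pair or array was left out. The metal median was 0.038 with median centring, -0.0096 with the Low goat in Cy5 and 0.037 with it in Cy3. In the same 2 orientations the sugar median was 0.069 and -0.029, and the nucleotide sugar median -0.0087 and -0.13. With the Low goat in Cy3 the mitochondrial median was 0.060 and the inorganic ion median 0.021. When 1 pair or array was left out, the median ranged from -0.047 to 0.013 for amino acid carriers, -0.027 to 0.040 for sugar, -0.10 to -0.022 for nucleotide sugar, -0.0069 to 0.046 for mitochondrial and -0.015 to 0.025 for metal carriers. All class medians but that of the nucleotide sugar carriers changed sign in at least 1 alternative. The mitochondrial and metal medians did so only in runs that left out arrays.

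For the 48 named genes that were tested, 719 of 796 values under the alternatives kept their side of the threshold within the spread between pairs. In 76 values, over 34 genes, the sign differed from the main one. Ratios called with the opposite sign were, with the Low goat in Cy5, -0.25 for SLC39A4, 0.21 for SLC39A8 and 0.22 for SLC4A2. With it in Cy3 they were -0.34 for SLC17A2, 0.25 for SLC26A11, -0.18 for SLC2A4RG and -0.21 for SLC45A2. A single orientation does not remove the dye effect. The cause of the other shifts was not tested. With 3 pairs, differences under the intervals given above could not be shown, and for the 18 genes below the filter no ratio was measured.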
